A study of Homo sapiens with 12 samples.

Results

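The miR-18 and miR-19 families were measured in OCI-My5 cells, a human multiple myeloma (MM) cell line, on 12 miScript miRNA PCR Arrays with 1 array per condition. Members were taken by name, as every assay for hsa-miR-18a, hsa-miR-18b, hsa-miR-19a or hsa-miR-19b with either arm of the hairpin, which gave 7 of the 372 miRNA assays. They were miR-18a-5p, miR-18a-3p, miR-18b-5p, miR-18b-3p, miR-19a-3p, miR-19a-5p and miR-19b-3p. My5.LV cells carry a lentiviral vector alone, have a low level of CRBN and are resistant to lenalidomide, an immunomodulatory drug that binds CRBN. My5.CRBN cells carry a lentivirus with a His-tagged CRBN cDNA and are sensitive to the drug, and each line was a pool of infected cells sorted for GFP. Cells of each line were un-treated, were infected with a lentivirus carrying AGO2-sh72 (an shRNA against AGO2, which the labels call EIF2C2) or a tagged AGO2 cDNA, were given 10 μM lenalidomide for 72 h or 120 h, or received AGO2 cDNA and lenalidomide for 72 h. The infected cells had been selected with puromycin and the un-treated cells had not. No array of cells infected with an empty shRNA or cDNA vector was analysed here, so infection and selection cannot be told apart from AGO2-sh72 or AGO2 cDNA. Likewise, no array is labelled as a DMSO or time-matched control. Vehicle and time in culture therefore cannot be told apart from lenalidomide in comparisons with un-treated cells. AGO2 and CRBN mRNAs are not on the array.

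A miRNA hairpin is cut by DROSHA and DICER1 into a short duplex, and one strand of it is loaded into an Argonaute protein such as AGO2, which holds the miRNA and uses its seed, bases 2 to 8, to find target mRNAs. The more abundant strand is often called the guide and the other the passenger. The miR-18 and miR-19 hairpins lie in the MIR17HG cluster on chromosome 13, known as an oncogenic cluster in lymphoid tumours and a target of MYC, and in the paralogous miR-106a-363 cluster on chromosome X. Members of the miR-18 family are known repressors of the matrix gene CTGF.

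The mature sequences are shown because the families are defined by their seeds. miR-18a-5p and miR-18b-5p, like miR-19a-3p and miR-19b-3p, also differ so little that each assay could detect the other miRNA. All 7 members matched an entry in RefSeq (GRCh38.p14). The seed is in capitals.
hsa-miR-18a-5p: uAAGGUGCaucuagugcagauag
hsa-miR-18b-5p: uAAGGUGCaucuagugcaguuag
hsa-miR-18a-3p: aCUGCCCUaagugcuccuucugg
hsa-miR-18b-3p: uGCCCUAAaugccccuucuggc
hsa-miR-19a-3p: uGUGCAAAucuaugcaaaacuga
hsa-miR-19b-3p: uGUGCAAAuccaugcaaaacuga
hsa-miR-19a-5p: aGUUUUGCauaguugcacuaca
miR-18a-5p and miR-18b-5p share the seed AAGGUGC and are the same at 22 of 23 bases. The difference is A20U, counted from 1 at the 5′ end with the base of miR-18a-5p first. miR-19a-3p and miR-19b-3p share the seed GUGCAAA and are also the same at 22 of 23 bases, with the difference U11C and the base of miR-19a-3p first. The 3 other members each had a seed of their own. The level of one paralogue read by the assay of the other was not measured, and assays of different primers were not compared in level.

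The miR-18 hairpins are shown with their mature arms in capitals, since both arms of each were measured.
MIR18A: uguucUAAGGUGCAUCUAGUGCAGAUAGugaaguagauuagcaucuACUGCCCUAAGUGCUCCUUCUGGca
MIR18B: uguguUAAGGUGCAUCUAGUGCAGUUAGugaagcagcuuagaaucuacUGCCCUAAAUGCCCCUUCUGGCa
RefSeq starts the miR-18b-3p arm further into the hairpin than the miR-18a-3p arm, so that the seeds of these passenger arms are out of register. MIR18A lies at chr13:91350751-91350821 on the plus strand of GRCh38.p14, where 6 hairpins span 787 bases, and MIR18B lies at chrX:134170041-134170111 on the minus strand, where the cluster spans 901 bases from MIR363 to MIR106A. miR-19a-3p comes from chr13:91350939-91350961. miR-19b-3p has a copy in each cluster, at chr13:91351245-91351267 and chrX:134169683-134169705, and its assay cannot tell them apart.

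In PCR, the threshold cycle (Ct) counts the cycles a well needs to reach the detection threshold, so a lower Ct is a higher level. To obtain a level, the Ct of a miRNA was subtracted from the average Ct of 6 wells for small RNAs (5 SNORD RNAs and RNU6) on the same array, with 1 cycle read as 1 log2 unit and 35 as the highest Ct allowed. All 84 Ct values of the families lay under 35. Mean Ct values over the 12 arrays were 17.9 for miR-19a-3p, 18.8 for miR-19b-3p, 20.2 for miR-18a-5p, 24.5 for miR-18b-5p, 25.1 for miR-18a-3p, 29.1 for miR-18b-3p and 31.95 for miR-19a-5p. Each miRNA had 1 well per array, and from 324 to 367 miRNAs per array were under Ct 35. The mean Ct of the control wells ranged from 18.7 to 21.9, and duplicate wells differed by a root mean square of 0.187 cycles for reverse transcription and 0.383 cycles for PCR controls.

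The 4 members miR-18a-5p, miR-18a-3p, miR-19a-3p and miR-19b-3p were lower in AGO2-sh72 treated cells of both lines, whereas miR-18b-5p, miR-18b-3p and miR-19a-5p were not called lower. On the log2 scale, the levels of miR-18a-5p in My5.LV cells were 0.63 un-treated, -1.63 with AGO2-sh72, 0.06 with AGO2 cDNA, 0.27 with lenalidomide for 72 h, 0.00 with AGO2 cDNA and lenalidomide, and 1.62 with lenalidomide for 120 h. In My5.CRBN cells, in the same order, the levels of miR-18a-5p were 0.47, -1.35, -0.09, -0.24, -0.66 and 0.35. Both AGO2-sh72 arrays had less miR-18a-5p than any of the other 10 arrays. The steady-state levels of miR-18a-5p with AGO2-sh72 were 4.77 fold lower than un-treated in My5.LV cells, and 3.52 fold lower for My5.CRBN.

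The passenger arm of the same hairpin, miR-18a-3p, had levels in My5.LV cells of -4.61 un-treated, -6.58 with AGO2-sh72, -4.21 with AGO2 cDNA, -4.53 with lenalidomide for 72 h, -4.46 with AGO2 cDNA and lenalidomide, and -3.67 with lenalidomide for 120 h. In My5.CRBN cells the corresponding levels of miR-18a-3p were -4.70, -6.33, -3.81, -5.03, -5.14 and -5.93. The AGO2-sh72 arrays were again the lowest of the 12, with the 120 h array of My5.CRBN cells next. Against un-treated cells miR-18a-3p was 3.90 fold lower in My5.LV cells, and 3.11 fold lower for My5.CRBN.

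miR-19a-3p, which carries the miR-19 seed, had levels in My5.LV cells of 2.55 un-treated, 1.03 with AGO2-sh72, 2.56 with AGO2 cDNA, 2.35 with lenalidomide for 72 h, 2.62 with AGO2 cDNA and lenalidomide, and 2.57 with lenalidomide for 120 h. In My5.CRBN cells the levels of miR-19a-3p were 2.49, 0.85, 2.16, 3.19, 2.23 and 2.31 in that order. Outside the AGO2-sh72 arrays, miR-19a-3p stayed within 1.02 log2 units over 10 arrays. Its levels with AGO2-sh72 were 2.85 fold lower than un-treated in My5.LV cells, short of the 3 fold used in the study, and 3.12 fold lower for My5.CRBN.

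miR-19b-3p, with the same seed, had the narrowest range of the members outside the AGO2-sh72 arrays, and its levels in My5.LV cells were 1.81 un-treated, 0.17 with AGO2-sh72, 1.60 with AGO2 cDNA, 1.60 with lenalidomide for 72 h, 1.51 with AGO2 cDNA and lenalidomide, and 1.79 with lenalidomide for 120 h. In My5.CRBN cells the levels of miR-19b-3p were 1.77, 0.08, 1.50, 1.09, 1.33 and 1.82. The 10 arrays without AGO2-sh72 lay within 0.73 log2 units, and the AGO2-sh72 arrays lay below all of them. miR-19b-3p was 3.12 fold lower with AGO2-sh72 in My5.LV cells, and 3.21 fold lower for My5.CRBN.

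miR-18b-5p, the paralogue of miR-18a-5p from chromosome X, had levels in My5.LV cells of -4.40 un-treated, -4.56 with AGO2-sh72, -3.98 with AGO2 cDNA, -4.45 with lenalidomide for 72 h, -4.57 with AGO2 cDNA and lenalidomide, and -4.01 with lenalidomide for 120 h. In My5.CRBN cells the levels of miR-18b-5p were -4.07, -4.25, -5.10, -3.99, -4.40 and -4.19. Its AGO2-sh72 arrays lay inside the range of the other arrays, and all 12 arrays lay within 1.13 log2 units. The levels of miR-18b-3p, the other arm of that hairpin, ranged from -10.2 to -7.74 with a median of -9.03, and those of miR-19a-5p, the passenger arm of MIR19A, from -12.9 to -10.1 with a median of -11.9. For both of these passenger arms the AGO2-sh72 arrays lay inside the range of the other 10.

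**Figure D1:**
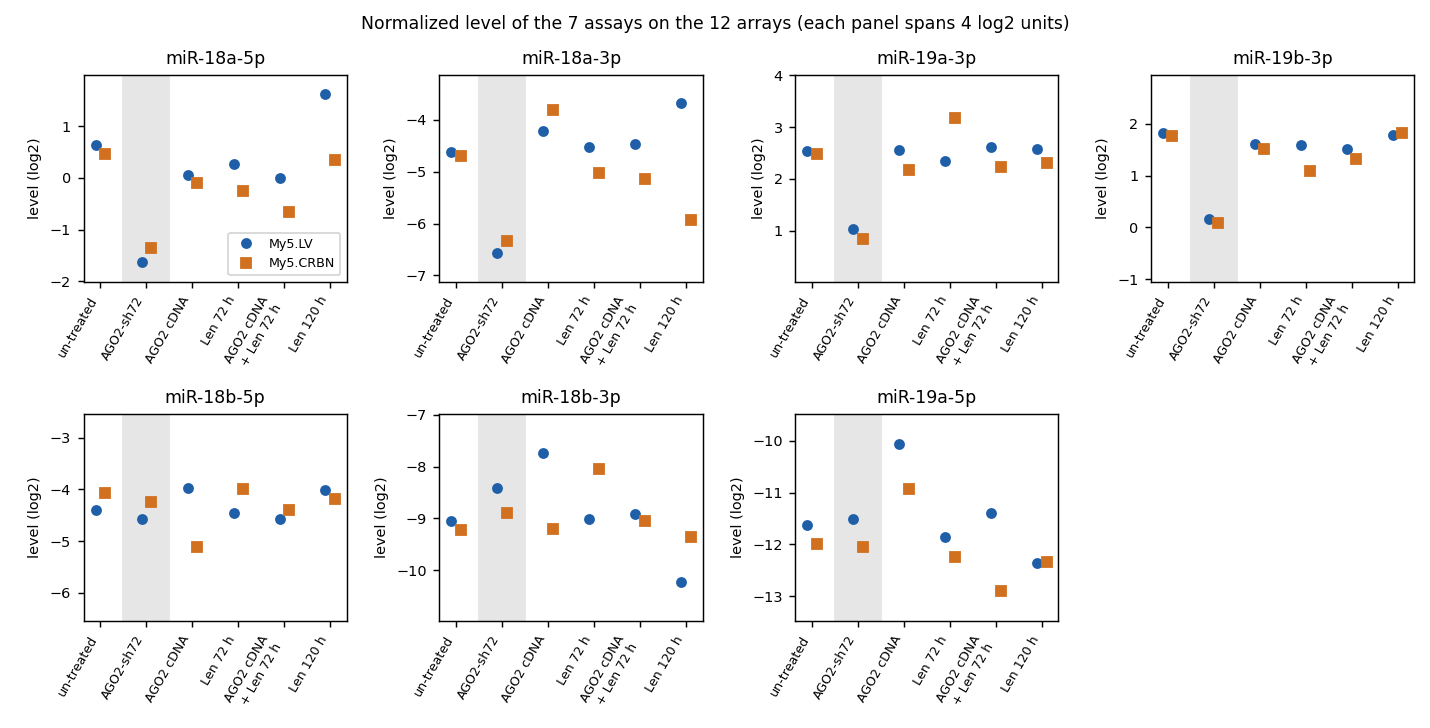
Normalized level (log2, average Ct of 6 control wells minus Ct) of the 7 assays in each of the 6 treatments, with circles for My5.LV and squares for My5.CRBN cells; each point is 1 array, every panel spans 4 log2 units, Len is lenalidomide and the shaded column is AGO2-sh72. In the upper row both AGO2-sh72 points lie below the other 10 points of miR-18a-5p, miR-18a-3p, miR-19a-3p and miR-19b-3p, and in the lower row they lie among the other points.

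With 1 array per condition, a comparison of 2 arrays has no replicate check. Against the 3 fold threshold, miR-18a-5p, miR-18a-3p and miR-19b-3p (3 of the 7) were lower with AGO2-sh72 in My5.LV cells, as were 23.7% of all 372 miRNAs. In My5.CRBN cells 4 of the 7 passed it, as miR-19a-3p joined them, and 12.9% of all miRNAs did. No family member was at least 3 fold higher in either line, where 1.88% and 1.61% of all miRNAs were. The AGO2-sh72 arrays lay below all other arrays for 4 of the 7 members and for 33.9% of all miRNAs. The 6 control wells, around their own mean, shifted between these arrays with an SD of 0.51 in My5.LV cells, and 0.30 for My5.CRBN, and RNU6 was 0.98 and 0.45 higher than that mean.

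To use both lines at once, an additive limma model of line and treatment was fitted to all 372 miRNAs on the 12 arrays. The disagreement between the lines gives the error of each miRNA (5 residual degrees of freedom). limma then drew each error toward those of miRNAs with a like average level. The SEs and p-values therefore use all miRNAs and rest on more than these 5 degrees of freedom. p-values were adjusted over all miRNAs. In the comparison of AGO2-sh72 with un-treated cells, miR-18a-5p had a log2 difference of -2.04 ± 0.35 (SE, limma adjusted p = 0.0011). miR-19b-3p had a log2 difference of -1.66 ± 0.29 (adjusted p = 0.0011). miR-19a-3p had a log2 difference of -1.58 ± 0.34 (adjusted p = 0.0033) and miR-18a-3p of -1.80 ± 0.50 (adjusted p = 0.011). All 4 passed the threshold of 0.05, as 32.8% of all miRNAs did in this direction. None of the 7 was called higher, as 0.806% of all miRNAs were. In the fits with an array left out, the share of all miRNAs called was not counted. A call lost there is therefore not read as a trait of the member. The call of miR-18a-3p was lost without the AGO2-sh72 array of My5.LV cells, at -1.37 (adjusted p = 0.18), or without the un-treated array of My5.CRBN cells, at -1.56 (adjusted p = 0.12).

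The members not called were miR-18b-5p and the passenger arms miR-18b-3p and miR-19a-5p. The mean Ct of these passenger arms, 29.1 and 31.95, lay above the 25.1 of the called passenger arm miR-18a-3p, and that of miR-18b-5p, 24.5, lay below it. The log2 difference of miR-18b-5p with AGO2-sh72 was -0.17 ± 0.38 (limma adjusted p = 0.84), with -0.17 in My5.LV cells, and -0.18 for My5.CRBN. It was 0.47 ± 0.58 for miR-18b-3p (adjusted p = 0.65) and 0.03 ± 0.61 for miR-19a-5p (adjusted p = 0.98), with errors that leave room for a difference in either direction. The share of miRNAs called lower also moved with the Ct. Among the 50 miRNAs with a mean Ct under 22, which held miR-18a-5p, miR-19a-3p and miR-19b-3p, 90% were called lower and the median log2 difference was -1.40. Among the 76 with a mean Ct from 22 to 26, which held miR-18a-3p and miR-18b-5p, 61.8% were called lower with a median of -1.18, so that miR-18b-5p lay above the median of its own class. The 121 miRNAs from Ct 26 to 30 had a median of -0.37, and the 125 at Ct 30 or more, miR-19a-5p among them, had a median of -0.05. The part of the Ct in the difference between the members was not tested.

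**Figure D2:**
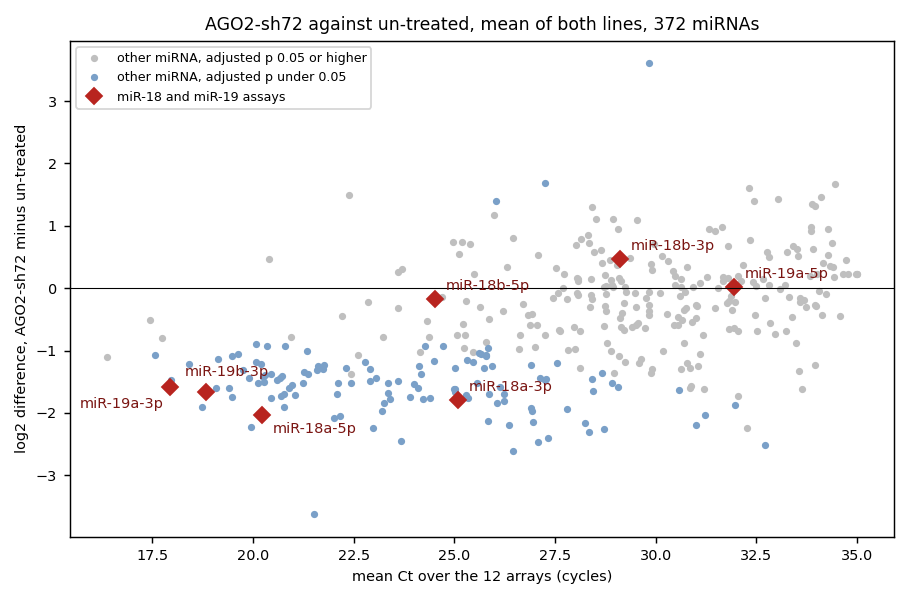
Log2 difference between AGO2-sh72 treated and un-treated cells (mean of both lines, y axis) against the mean Ct over the 12 arrays (cycles, x axis) for 372 miRNAs; blue points passed an adjusted p of 0.05, grey points did not, and diamonds are the 7 family assays. miR-18a-5p, miR-19a-3p and miR-19b-3p lie among the miRNAs with a mean Ct under 22, of which 90% were called lower, and miR-18b-5p lies near 0 in a Ct class with a median of -1.18.

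The size of these differences turned on the normalizer, because the median of all 372 miRNAs itself was -0.59 with AGO2-sh72. With the global mean of the miRNAs in place of the control wells, miR-18a-5p remained lower at -1.33 (limma adjusted p = 0.043), and the other 3 did not pass, at -1.10 for miR-18a-3p (adjusted p = 0.16), -0.87 for miR-19a-3p (adjusted p = 0.12) and -0.96 for miR-19b-3p (adjusted p = 0.0979). On that scale miR-18b-5p turned to 0.53 (adjusted p = 0.27). How many of all miRNAs were called with the global mean was not counted, so these calls are not read as a trait of the members. The AGO2-sh72 arrays then lay below all others for miR-18a-5p, miR-18a-3p and miR-19a-3p, 3 of the 7 members, and for 12.6% of all miRNAs.

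Differences in Ct between a pair of assays on the same array need no normalizer. Between the paralogues, the Ct of miR-18b-5p exceeded that of miR-18a-5p by 5.02 cycles in un-treated My5.LV cells and by 2.94 cycles with AGO2-sh72. In My5.CRBN cells the gap was 4.54 cycles un-treated and 2.90 cycles with AGO2-sh72. In the remaining arrays it lay between 4.04 and 5.63 cycles in My5.LV and between 3.74 and 5.01 cycles in My5.CRBN cells, so that the AGO2-sh72 array had the smallest gap of its line in both. The exact permutation test within lines gave a two-sided p of 0.028, the smallest that its 36 arrangements allow, and 0.19 after adjustment over the 20 tests of 4 assay pairs and 5 treatments. With this smallest p no single pattern could pass the adjustment, so these tests neither show a difference nor the lack of one.

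Between the miR-19 paralogues the gap was also read on each array. The Ct of miR-19b-3p exceeded that of miR-19a-3p by 0.74 and 0.72 cycles un-treated (My5.LV, then My5.CRBN) and by 0.87 and 0.76 cycles with AGO2-sh72 (exact permutation p = 0.72 over the 12 arrays). A single array stood apart, My5.CRBN cells with lenalidomide for 72 h, where the gap was 2.10 cycles against 0.49 to 0.90 in the other arrays of that line. On this array miR-19a-3p had its highest level of the 12 and miR-19b-3p its lowest outside the AGO2-sh72 arrays.

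Between the arms of MIR18A, the Ct of miR-18a-3p exceeded that of miR-18a-5p by 5.24 and 5.17 cycles un-treated (My5.LV, then My5.CRBN) and by 4.95 and 4.99 cycles with AGO2-sh72 (exact permutation p = 0.83). With AGO2 cDNA the gap between the arms was 4.27 and 3.72 cycles, the smallest of each line (exact permutation p = 0.083, adjusted p = 0.42). With lenalidomide for 120 h it was 5.29 and 6.27 cycles, the largest of each line (exact permutation p = 0.028, adjusted p = 0.19). The gap between miR-18a-5p and miR-19a-3p, neighbours in the same cluster, was smallest at 120 h, at 0.95 cycles in My5.LV cells, and 1.96 cycles for My5.CRBN against 1.92 and 2.02 cycles un-treated (exact permutation p = 0.028, adjusted p = 0.19).

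**Figure D3:**
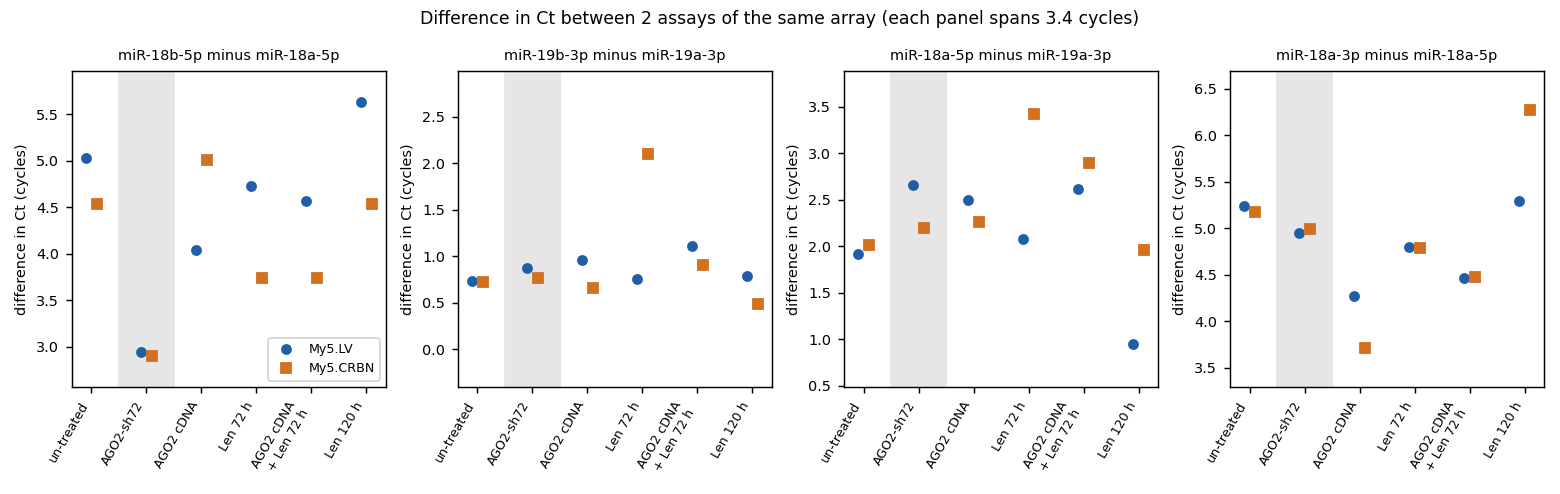
Difference in Ct (cycles) between 2 assays of the same array for 4 pairs, by treatment, with circles for My5.LV and squares for My5.CRBN cells; each point is 1 array, every panel spans 3.4 cycles and the shaded column is AGO2-sh72. The gap of miR-18b-5p to miR-18a-5p was smallest with AGO2-sh72 in both lines, at 2.94 and 2.90 cycles, and the gap of miR-19b-3p to miR-19a-3p stood apart at 2.10 cycles in My5.CRBN cells with lenalidomide for 72 h.

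The comparison of AGO2 cDNA with AGO2-sh72 asks how the members differed between raised and lowered AGO2. It shares the AGO2-sh72 arrays with the comparison above, so its values are not independent of it. miR-18a-3p was higher with AGO2 cDNA by 2.45 ± 0.50 log2 units (limma adjusted p = 0.0027), 5.16 fold in My5.LV cells, and 5.75 fold for My5.CRBN. miR-18a-5p was higher by 1.47 ± 0.35 (adjusted p = 0.0068), miR-19b-3p by 1.43 ± 0.29 (adjusted p = 0.0027) and miR-19a-3p by 1.42 ± 0.34 (adjusted p = 0.0070). These 4 of the 7 members were called higher, as 28.8% of all miRNAs were, and none was called lower, as 0.269% were. miR-19a-5p had a log2 difference of 1.29 ± 0.61 (adjusted p = 0.15), with 1.45 in My5.LV cells, and 1.13 for My5.CRBN, and without the mean-variance trend of the fit it was called higher (adjusted p = 0.0496). The share of all miRNAs called without the trend was not counted, so this call is not read as a trait of miR-19a-5p. miR-18b-5p had a log2 difference of -0.13 ± 0.38 (adjusted p = 0.86) and miR-18b-3p of 0.19 ± 0.58 (adjusted p = 0.86).

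At the 3 fold threshold, miR-18a-5p and miR-18a-3p (2 of the 7) were higher in My5.LV cells, as were 22.3% of all miRNAs, and miR-18a-3p alone (1 of the 7) in My5.CRBN cells, as were 10.2%. None was lower, where 0.269% and 3.49% of all miRNAs were. With the global mean as normalizer none of the 4 passed, the nearest being miR-18a-3p at 1.77 (limma adjusted p = 0.055). How many of all miRNAs were called with this normalizer, or with an array left out, was not counted. Calls lost or kept there are therefore not read as traits of single members. Without the AGO2-sh72 array of My5.LV cells only miR-19b-3p was called, at 1.39 (adjusted p = 0.037). miR-18a-5p was also not called without the AGO2 cDNA array of My5.CRBN cells, at 1.31 (adjusted p = 0.059), and miR-19a-3p without that of My5.LV cells, at 1.23 (adjusted p = 0.063).

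Against un-treated cells, AGO2 cDNA left all 7 members without a call, as it did all 372 miRNAs (0% lower and 0% higher). The log2 differences were -0.57 ± 0.35 for miR-18a-5p, -0.16 ± 0.34 for miR-19a-3p and -0.24 ± 0.29 for miR-19b-3p. For the passenger arms they were 0.65 ± 0.50 for miR-18a-3p, 0.67 ± 0.58 for miR-18b-3p and 1.32 ± 0.61 for miR-19a-5p. miR-19a-5p was the member with the highest positive value, and its AGO2 cDNA arrays held its highest levels in both lines, -10.1 in My5.LV cells, and -10.9 for My5.CRBN. It was the only member with an unadjusted limma p under 0.05 (adjusted p = 0.51), a level that 34 of all 372 miRNAs reached. The 125 miRNAs with a mean Ct of 30 or more, miR-19a-5p among them, had a median of 0.35 in this comparison. For the 50 under Ct 22 the median was -0.25. The part of the Ct in the value of miR-19a-5p was not tested. For miR-18b-5p the lines went in opposite directions, with 0.42 in My5.LV cells, and -1.03 for My5.CRBN. No member differed by 3 fold in either line. At that threshold 0.806% of all miRNAs were lower and 5.91% higher in My5.LV cells, and 6.18% and 2.15% in My5.CRBN cells.

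**Figure D4:**
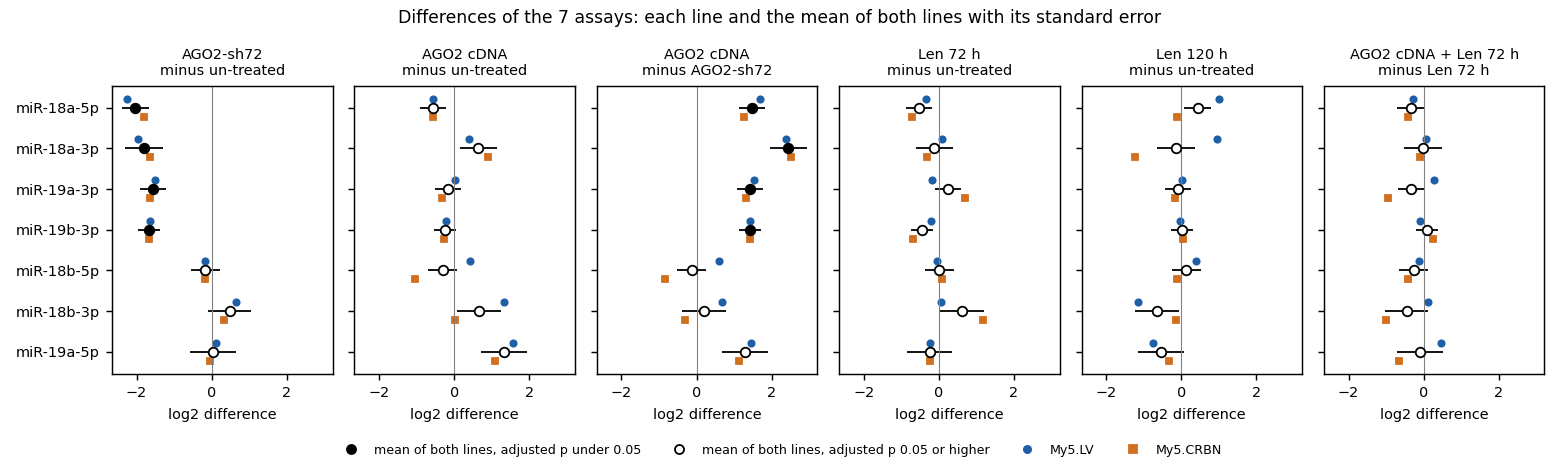
Log2 differences of the 7 assays in 6 comparisons of treatments; black circles are the means of both lines from the limma fit with their standard errors, filled where the adjusted p was under 0.05, and blue circles and orange squares are My5.LV and My5.CRBN cells alone. Filled circles occur only for miR-18a-5p, miR-18a-3p, miR-19a-3p and miR-19b-3p, and only in the panels that involve AGO2-sh72.

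Lenalidomide for 72 h gave no call among the 7 members or among all 372 miRNAs (0% lower and 0% higher), of which 16 had an unadjusted limma p under 0.05, none of them a member. The log2 differences from un-treated cells lay between -0.53 ± 0.35 for miR-18a-5p and 0.61 ± 0.58 for miR-18b-3p. In the lenalidomide-sensitive My5.CRBN cells miR-18a-5p was at -0.71 and miR-19b-3p at -0.68, whereas miR-19a-3p was at 0.70 and miR-18b-3p at 1.17. In My5.LV cells all 7 lay between -0.35 and 0.09. No difference reached 3 fold, which 0.538% of all miRNAs did in each direction in My5.LV cells, and 1.61% (lower) and 9.95% (higher) in My5.CRBN cells.

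Lenalidomide for 120 h also gave no call among the members, where 6.18% of all miRNAs were called lower and 2.15% higher. The arms of MIR18A were the members whose lines lay furthest apart. miR-18a-5p was 0.99 above un-treated in My5.LV cells, its highest level of the 12 arrays, and -0.12 in My5.CRBN cells, with a mean of 0.44 ± 0.35 (limma adjusted p = 0.49). miR-18a-3p was at 0.94 in My5.LV cells, and -1.23 for My5.CRBN, with a mean of -0.14 ± 0.50 (adjusted p = 0.88). The miR-19 guides were near 0, with -0.08 ± 0.34 for miR-19a-3p (adjusted p = 0.90) and 0.01 ± 0.29 for miR-19b-3p (adjusted p = 0.98). No member reached 3 fold in either line, where 14.2% of all miRNAs were lower and 4.3% higher in My5.LV cells, and 13.4% and 5.11% in My5.CRBN cells.

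When AGO2 cDNA was combined with lenalidomide for 72 h and compared with lenalidomide alone, no member of the families and no miRNA of the 372 was called (0% lower and 0% higher), with 32 miRNAs and no member at an unadjusted limma p under 0.05. The log2 differences ranged from -0.45 ± 0.58 for miR-18b-3p to 0.08 ± 0.29 for miR-19b-3p. RNU6 was 1.06 and 0.71 above the mean of the control wells in this comparison in My5.LV and My5.CRBN cells. As the only normalizer it therefore lowers every miRNA. On that scale miR-18a-5p (-1.23), miR-18b-5p (-1.15) and miR-19a-3p (-1.23) were called lower. The share of all miRNAs called there was not counted, so these calls are not read as a result about the members. With the control wells as normalizer no member differed by 3 fold. At that threshold 5.91% of all miRNAs were lower and 1.08% higher in My5.LV cells, and 6.99% and 1.08% for My5.CRBN. Against un-treated cells, the member furthest from 0 under the combination was miR-18a-5p in My5.CRBN cells, at -1.13, and none reached 3 fold, where 5.11% of all miRNAs were lower and 2.42% higher in My5.LV cells, and 0.806% and 4.3% for My5.CRBN.

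No member was called different between My5.CRBN and My5.LV cells over the 6 treatments, where 1.88% of all miRNAs were called lower and 3.76% higher. At 3 fold, the shares of all miRNAs lower in My5.CRBN cells were 1.88% un-treated, 0.806% with AGO2-sh72, 9.14% with AGO2 cDNA, 0.538% with lenalidomide for 72 h, 1.88% with AGO2 cDNA and lenalidomide, and 6.45% with lenalidomide for 120 h, and the shares higher were 2.15%, 3.23%, 1.61%, 9.41%, 6.99% and 6.45% in that order. The members furthest from 0 in the fit were miR-19a-5p at -0.61 ± 0.35 (limma adjusted p = 0.45), miR-18a-3p at -0.48 ± 0.29 (adjusted p = 0.48) and miR-18a-5p at -0.42 ± 0.20 (adjusted p = 0.39). Un-treated, the lines lay within 0.38 log2 units of each other for every member. The single difference of 3 fold between the lines among the 7 members and 6 treatments was that of miR-18a-3p at 120 h of lenalidomide, lower in My5.CRBN cells.

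The other miRNAs of the MIR17HG and miR-106a-363 clusters and of another paralogous cluster with miR-106b, miR-93 and miR-25 gave 16 assays. With AGO2-sh72, 8 of the 16 were called lower and none higher, beside 32.8% and 0.806% of all miRNAs, with a median log2 difference of -0.86 against -1.58 for the 7 family members and -0.59 for all miRNAs. These medians were not matched for mean Ct, which reached 34.3 for miR-106a-3p among the 16 and 31.95 for miR-19a-5p in the families. The 8 called lower ran from -1.91 for miR-106b-5p to -1.05 for miR-92a-3p. miR-17-5p, the first miRNA of the chromosome 13 cluster, was at -1.74 and miR-20a-5p at -1.47, beside -2.04 for miR-18a-5p from the same transcript. miR-92a-3p was at -1.05, but it has a hairpin on chromosome 13 (MIR92A1) and another on chromosome X (MIR92A2), which its assay cannot tell apart. miR-20b-5p, a neighbour of miR-18b-5p on chromosome X, was at -1.44 (limma adjusted p = 0.0051), beside -0.17 for miR-18b-5p. miR-363-3p of that cluster, with a mean Ct of 33.4, was at 0.68 (adjusted p = 0.60). With AGO2 cDNA against AGO2-sh72, 9 of the 16 were called higher, beside 28.8% of all miRNAs, with a median of 1.21, and in the other 5 comparisons none was called.

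Over the 12 arrays, the pattern most like that of miR-18a-5p was that of let-7g-5p (Pearson r = 0.98), followed by miR-23b-3p (0.97) and miR-146b-5p (0.97), among 307 miRNAs outside the families and under Ct 35 on all arrays. For miR-18a-3p it was miR-20a-3p (0.96), a passenger arm of the same cluster, and for miR-18b-5p it was miR-20b-3p (0.83), a passenger arm of the cluster on chromosome X. miR-19a-3p was most like miR-30e-5p (0.92), miR-19b-3p most like miR-106b-5p (0.95) and miR-19a-5p most like miR-92a-1-5p (0.73), the passenger arm of another hairpin of the chromosome 13 cluster. miR-18b-3p was most like miR-549a (0.91). Among the members, r was 0.88 between miR-18a-5p and miR-19b-3p, 0.80 between the miR-19 guides, 0.76 between the arms of MIR18A and 0.30 between miR-18a-5p and miR-18b-5p. It was 0.13 between the arms of MIR18B, 0.0023 between those of MIR19A and -0.55 between miR-18a-5p and miR-18b-3p. With the global mean as normalizer, r was 0.57 between the miR-19 guides, 0.66 between the arms of MIR18A, -0.014 between miR-18a-5p and miR-18b-5p and -0.84 between miR-18a-5p and miR-18b-3p. All levels of an array share the same control wells, and the AGO2-sh72 arrays weigh on each of these values.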

How the data were processed

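After reverse transcription with the miScript II kit, miRNAs in total RNA were measured by SYBR green PCR on miScript miRNA PCR Arrays. The deposited table used here holds raw Ct values, an instrument score in cycles with no normalization by the authors. A deposited table of the authors' own fold changes was not used. Groups came from the sample labels, with 1 array for each of 12 conditions. Ct values were capped at 35 and subtracted from the average Ct of 6 wells for small RNAs. Pairs of arrays were compared at 3 fold. limma 3.58.1 (R 4.3.3) fitted line and treatment on all 372 miRNAs with a mean-variance trend and Benjamini-Hochberg adjustment. Since each line has 1 array per treatment, p-values rest on how far the lines disagree, not on the spread between cultures. The empirical Bayes step of limma moderated each error over all miRNAs. On simulated data of the AGO2-sh72 comparison, the fit called 23 of 30 miRNAs changed by -2.5 log2 units, 15 of 30 changed by -1.5 and 1 of 312 unchanged. The simulated noise was drawn separately for each miRNA and array, with no shift shared by an array. The changed miRNAs were picked at random, whatever their Ct. The simulation therefore cannot give the rate of false calls that come from the normalizer or go with the Ct. Within-array Ct differences were tested by exact permutation, two-sided, a test added after seeing the data. The members and lists were chosen with earlier results of these data known. The members were all assays of the 4 miRNAs named in the rule, with the other assays of their clusters and the most correlated miRNAs named beside them. Mature and hairpin sequences were taken from RefSeq (GRCh38.p14). Alternatives were other normalizers (global mean, RNU6 alone, SNORD wells, reverse transcription control wells), a cap at Ct 32, only miRNAs under Ct 35 on all or both arrays, no trend, and each array left out. PCR arrays have no sequencing depth, and the single well per miRNA and array limits the precision. Python 3.11.15, pandas 2.3.3, SciPy 1.17.1 and Matplotlib 3.10.9 were used.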

Additional observations from a re-analysis of the deposited data

Results flagged for a closer look

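In 4 instances a member differed in opposite directions in the lines under the same treatment by more than the SD of the control wells of that comparison, and in each the difference between the lines was not tested, since each value comes from 1 pair of arrays. The share of all miRNAs that did so was not counted, so the number is not read as a trait of the members. miR-18b-5p with AGO2 cDNA was at 0.42 against un-treated My5.LV cells and at -1.03 against un-treated My5.CRBN cells, and against AGO2-sh72 it was at 0.59 and -0.85. Both instances rest on the same AGO2 cDNA arrays. The AGO2 cDNA array of My5.CRBN cells had the fewest miRNAs under Ct 35 (324) and the highest mean Ct of the control wells (21.9). miR-19a-3p with lenalidomide for 72 h was at -0.20 in My5.LV cells, and 0.70 for My5.CRBN. miR-18a-3p with lenalidomide for 120 h was at 0.94 in My5.LV cells, and -1.23 for My5.CRBN.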

How the results depend on the processing

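With 1 well per miRNA and 1 array per condition, no value here has a replicate, and the lines take the place of replicates. Arrays could be paired only by line, since each condition has 1 array, and line already stands in the fit. With each array left out, from 3 to 4 members were called lower with AGO2-sh72 against un-treated cells and from 1 to 4 were called higher with AGO2 cDNA against AGO2-sh72, the lowest without the AGO2-sh72 array of My5.LV cells, and the lone array left of a treatment is assumed to vary like the others. miR-18a-5p, miR-19a-3p and miR-19b-3p kept their calls with AGO2-sh72 in all 12 such fits. With the global mean as normalizer 1 member was called lower with AGO2-sh72 (miR-18a-5p) and 0 higher with AGO2 cDNA against AGO2-sh72, and 0 reached 3 fold with AGO2-sh72 in either line or with AGO2 cDNA against AGO2-sh72 in My5.LV cells, whereas 1 did between the lines under AGO2 cDNA and lenalidomide. With RNU6 alone, 3 members were called lower with AGO2 cDNA and lenalidomide against lenalidomide. At 3 fold with RNU6 alone, 5 (My5.LV) and 2 (My5.CRBN) were higher with AGO2 cDNA against AGO2-sh72, 1 was lower in each line with AGO2 cDNA and lenalidomide against un-treated, and 2 were lower in My5.CRBN cells against lenalidomide. With the SNORD wells, 2 were 3 fold lower with AGO2-sh72 in My5.CRBN cells and 1 was higher with AGO2 cDNA in My5.LV cells. With the reverse transcription wells, 1 (My5.LV) and 3 (My5.CRBN) were 3 fold higher with AGO2 cDNA against AGO2-sh72. Without the trend, miR-19a-5p was called higher with AGO2 cDNA against AGO2-sh72, at 1.29 (adjusted p = 0.0496). The cause of these shifts was not tested. A change of normalizer moves all miRNAs of an array together. The shares of all miRNAs called or past 3 fold under the other normalizers were not counted, nor were those called without the trend or with an array left out. These counts are therefore not read as results about the members.

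Apart from these, differences that were not called changed sign. With the global mean, miR-18b-5p was 0.53 with AGO2-sh72 and -0.11 with lenalidomide for 72 h, miR-18b-3p was -0.49 with AGO2 cDNA against AGO2-sh72, miR-18a-3p was 0.089 and miR-19a-3p 0.15 at 120 h, and miR-18a-3p was 0.20 and miR-19a-5p 0.14 with AGO2 cDNA and lenalidomide against lenalidomide. With RNU6 alone, miR-18b-3p was -0.24 and miR-19a-5p -0.69 with AGO2-sh72, miR-18b-5p was 0.15 with AGO2 cDNA against AGO2-sh72, -0.023 with lenalidomide for 72 h and 0.054 between the lines, and miR-19b-3p was -0.81 with AGO2 cDNA and lenalidomide. With the reverse transcription wells, miR-19a-5p was -0.20 with AGO2-sh72, miR-18b-5p was -0.054 at 72 h, miR-19b-3p was -0.026 at 120 h, and miR-18a-3p was 0.12 and miR-19a-5p 0.052 with AGO2 cDNA and lenalidomide. In that comparison the SNORD wells gave 0.15 for miR-18a-3p and 0.086 for miR-19a-5p, and a Ct cap of 32 gave 0.40 for miR-19a-5p.

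With each array left out, uncalled differences also changed sign within these ranges. With AGO2-sh72 they were -0.37 to 0.024 for miR-18b-5p and -0.11 to 0.16 for miR-19a-5p. With AGO2 cDNA against un-treated they were -0.98 to 0.37 for miR-18b-5p, -0.17 to 1.50 for miR-18b-3p and -0.35 to 0.038 for miR-19a-3p. With AGO2 cDNA against AGO2-sh72 they were -0.81 to 0.54 for miR-18b-5p and -0.65 to 1.03 for miR-18b-3p. At 72 h of lenalidomide they were -0.36 to 0.11 for miR-18a-3p, -0.27 to 0.30 for miR-18b-5p, -0.013 to 1.23 for miR-18b-3p and -0.30 to 0.80 for miR-19a-3p. At 120 h they were -0.081 to 0.95 for miR-18a-5p, -1.21 to 0.92 for miR-18a-3p, -0.064 to 0.33 for miR-18b-5p, -0.19 to 0.038 for miR-19a-3p and -0.10 to 0.12 for miR-19b-3p. With AGO2 cDNA and lenalidomide against lenalidomide they were -0.14 to 0.10 for miR-18a-3p, -0.55 to 0.015 for miR-18b-5p, -1.07 to 0.17 for miR-18b-3p, -0.89 to 0.20 for miR-19a-3p, -0.63 to 0.45 for miR-19a-5p and -0.14 to 0.29 for miR-19b-3p. Between the lines they were -0.10 to 0.22 for miR-18b-5p and -0.27 to 0.21 for miR-18b-3p.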
